A study of Mus musculus with 9 samples.

Results

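The heat shock chaperones described here are genes for proteins that fold, refold and hold other proteins. They were chosen by name: Hspa8, Hspa4, Hsp90aa1, Hsp90ab1, Hsph1, Hspd1, Hspe1, Hspb1, Dnajb1 and Chordc1. Each was read from its brightest probe set that GEO's platform annotation gives that single gene symbol, which 9 of the 10 had, among 19938 genes in all. Hsp90ab1 had none and is not analysed here. The arrays held total RNA of the mouse embryonic stem cell line R1E, kept undifferentiated by leukemia inhibitory factor (1000 units/ml) in medium with 15% fetal bovine serum, with no drug added. Lentivirus delivered a short hairpin RNA to the cells of every group: in the controls (shLuc) one that targets luciferase, and in the groups shApela_1 and shApela_2 a different hairpin each against Apela, a gene for a secreted peptide that binds the apelin receptor. Each of the 3 groups had 3 arrays, numbered 1 to 3 in the labels. Whether these were separate cultures is not said, and p-values cover the spread among arrays alone, which may be technical. Hairpin sequences, time after transduction and share of transduced cells were not used here.

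Chaperones work as relays. Hsp70 proteins bind stretches of unfolded chain and release them in a cycle driven by ATP, which J-domain proteins start and exchange factors of the Hsp110 kind reset, and clients can pass on to the Hsp90 system for final folding. Chaperonins enclose a protein in a chamber, and small heat shock proteins hold unfolded proteins until others refold them. When unfolded proteins accumulate, heat shock factor 1 binds heat shock elements, arrays of the unit GAA in alternating orientation, and switches many of these genes on together. Embryonic stem cells are known for abundant chaperones also without stress.

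The promoters of several of these genes hold such arrays, and they are shown because the genes that carry them are those whose levels are compared below. RefSeq promoter windows (assembly GRCm38.p6, 250 bases before to 50 after each annotated start) were at hand for 7 of the 9 genes, all but Hspa8 and Hsp90aa1. They were searched for the adjoining pairs GAANNTTC and TTCNNGAA, which read the same on both strands, and for the triplets GAANNTTCNNGAA and TTCNNGAANNTTC, which are each other's reverse complement and each contain both pairs. A pair stood in the windows of 5 of the 7 genes, against 17.0% of all 27025 genes with a window, and a triplet in 4 of the 7 (Hsph1, Hspd1, Hspe1 and Chordc1), against 0.662%. Per window, the shares were 15.1% and 0.603% of 32851. The stretches are written 5′ to 3′ on the gene's strand, with the run of alternating units in capitals.
Hspe1, chr1:55088053-55088082, plus strand: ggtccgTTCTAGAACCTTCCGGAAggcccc
Hspd1, chr1:55088053-55088082, minus strand: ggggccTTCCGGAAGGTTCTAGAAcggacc
Chordc1, chr9:18292260-18292288, plus strand: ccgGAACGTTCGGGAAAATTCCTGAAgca
Hsph1, chr5:149636282-149636306, minus strand: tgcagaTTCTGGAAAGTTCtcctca
Hspb1, chr5:135887782-135887849, plus strand: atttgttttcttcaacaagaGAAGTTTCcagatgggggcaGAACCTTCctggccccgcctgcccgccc
The mitochondrial chaperonin genes Hspe1 and Hspd1 lie head to head and share 1 run of 4 units, which spans 89 to 72 bases before the Hspe1 start and 144 to 127 before the nearer of the 2 Hspd1 starts. The run of Chordc1 has 5 units and crosses its start, from 4 bases before to 19 after it. The triplet of Hsph1 lies 37 to 49 bases after 1 of its 2 annotated starts and 16 to 28 after the other, and a pair stands before both. Hspb1 holds 2 separate pairs and no triplet, and the windows of Hspa4 and Dnajb1 hold neither. These are letters in a short window, not measured binding.

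**Figure D1:**
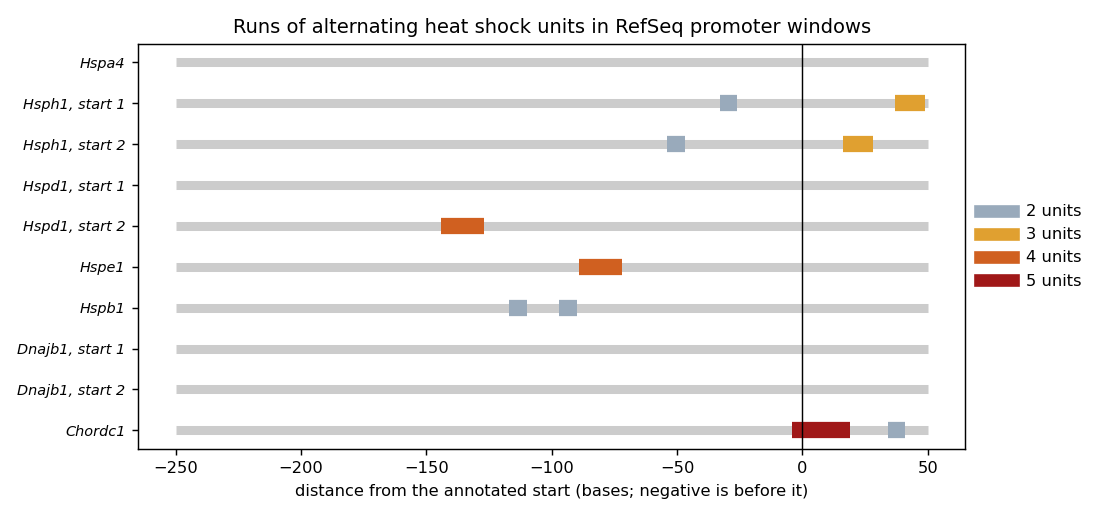
Runs of alternating heat shock units in the RefSeq promoter windows of 7 chaperone genes, by distance in bases from the annotated start (vertical line, 250 bases before to 50 after). Grey bars are the windows and coloured blocks the runs. The longest runs are those of Chordc1 (5 units, across the start) and of Hspd1 and Hspe1 (4 units), and the windows of Hspa4 and Dnajb1 are empty.

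Apela itself was at 32.9% of its shLuc level with shApela_1 and at 33.4% with shApela_2 (limma, adjusted p = 0.000197 and 0.000219). All 12 embryonic stem cell markers checked lay above the table's median of 7.06. One of them, Lin28a, a regulator of let-7 microRNAs, measured 10.16, 10.17 and 10.31 in shLuc, 9.75, 9.70 and 9.85 in shApela_1, and 10.20, 10.17 and 10.43 in shApela_2, and is named after its values were seen. It was lowest on the shApela_1 arrays and passed between the hairpins (0.50, limma adjusted p = 0.0266, 0.00558 with the array number as a block). Against shLuc the shApela_1 difference was -0.44 (adjusted p = 0.064, 0.0119 with the block). Of the markers of other cells that a culture could hold, some also lay above the median of 7.06. They were 3 of 8 for endoderm, 1 of 5 for mesoderm, 2 of 5 for neuroectoderm, 3 of 8 for trophectoderm and 5 of 8 for fibroblast feeders. The mean log2 level of the trophectoderm markers ran from 7.33 to 7.49 in shLuc, 7.08 to 7.38 in shApela_1 and 7.36 to 7.48 in shApela_2, and that of the feeder markers from 6.53 to 6.61, 6.50 to 6.61 and 6.58 to 6.73. With the block, the trophectoderm keratin genes Krt8 (-0.49, adjusted p = 0.0263) and Krt18 (-0.46, adjusted p = 0.0308) also passed with shApela_1. Krt8 passed between the hairpins too (0.32, adjusted p = 0.0467). The endoderm gene Dab2 passed with shApela_1 when limma counted noisier arrays less (-0.35, adjusted p = 0.0209). In the main limma fit it was at -0.34 with shApela_1 and -0.26 with shApela_2 (adjusted p = 0.117 and 0.68), with all arrays of both below all of shLuc. Of the 8 endoderm markers, 6 lay below shLuc with shApela_1 and 3 with shApela_2, beside 45.5% and 42.4% of all genes. The part of these markers in the results below was not tested. The third shApela_2 array stood apart, with an interquartile range of 3.29 against 3.50 to 3.59 and a correlation of at most 0.995 with any other array, while the other 8 correlated at 0.997 or more among themselves. The changes of Hspa8, Hsph1 and Chordc1 and the counts of genes that passed are therefore also given without it. Other differences and counts that use shApela_2 include it unless said otherwise. Levels are log2 values of RMA signals, comparable for 1 probe set across arrays but not between genes.

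With either hairpin the chaperones stayed close to their control level, and 0 of the 9 passed the test in any of the 3 comparisons (limma, Benjamini-Hochberg adjustment over all genes, threshold 0.05). Among all genes 0.336% passed with shApela_1, 0.015% with shApela_2 and 0.948% between the hairpins. With the array number as a block, 190 genes in place of 67 passed with shApela_1 and 653 in place of 189 between the hairpins, with 0 of the 9 chaperones among either. At an unadjusted p under 0.05, 1 of the 9 stood out in each comparison, Hspb1 with shApela_1 and Chordc1 in the other two, against 7.69%, 5.77% and 12.9% of all genes. The median change of the 9 was 0.00 with shApela_1, -0.06 with shApela_2 and -0.08 for shApela_2 against shApela_1, beside medians of all genes of 0.01, 0.02 and 0.02. With shApela_2 8 of the 9 lay below shLuc, beside 42.4% of all genes, and with shApela_1 4 of the 9, beside 45.5%. All 9 lay above the table's median, but only 10650 of the 19938 genes did, so such shares do not compare genes of like level. Of related lists wholly above the median, 15 of 17 Hsp90 cochaperones and 10 of 14 TRiC and prefoldin genes also lay below shLuc with shApela_2. So did 8 of 12 mitochondrial genes, 10 of 16 of the endoplasmic reticulum and 4 of the 12 embryonic stem cell markers. shApela_2 lay below shApela_1 for 7 of the 9, beside 42.1%, and the median of this comparison moved to -0.0043 without the third shApela_1 array. The comparisons with shLuc share its 3 arrays. In RNA of whole cultures, fewer cells of a type and less RNA per cell cannot be told apart.

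**Figure D2:**
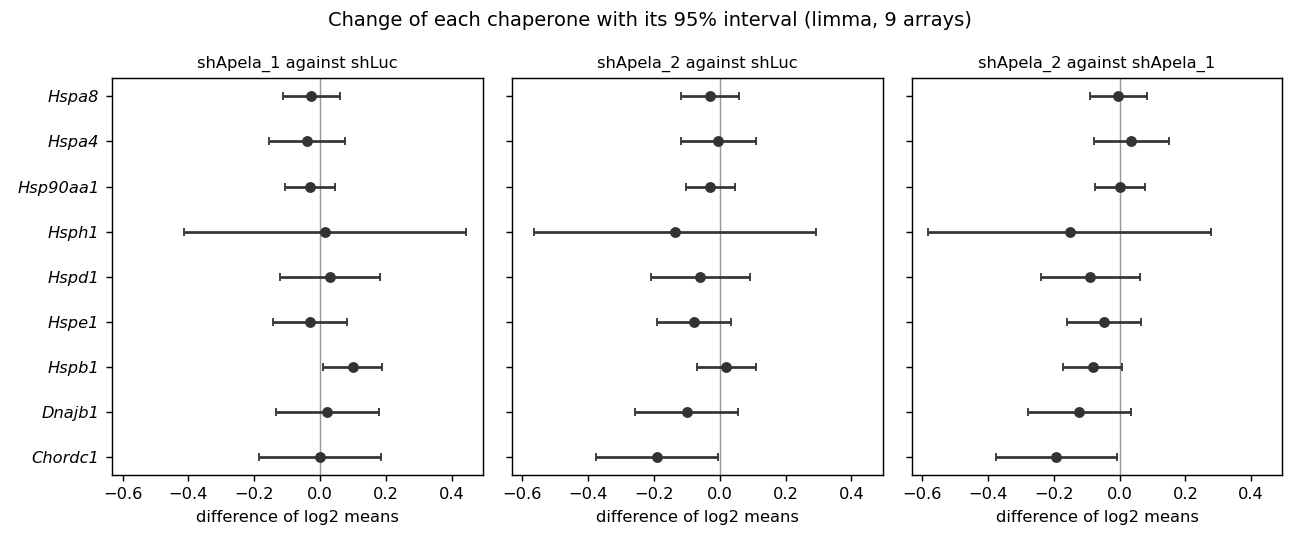
Difference of log2 group means for 9 chaperone genes in 3 comparisons (points) with limma's 95% interval (bars, 9 arrays). All points lie between -0.19 and 0.10, and the intervals of Hsph1 are the widest, from -0.41 to 0.44 with shApela_1.

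The constitutive Hsp70 and the inducible Hsp90 were among the steadiest. Hspa8, the Hsp70 that cells make at all times, measured 12.92, 12.87 and 12.89 in shLuc, 12.85, 12.86 and 12.89 in shApela_1, and 12.89, 12.89 and 12.81 in shApela_2 (arrays in the order of their numbers). The groups overlapped, and the third shApela_2 array was the lowest. Its change was -0.03 with shApela_1 (SE 0.04, adjusted p = 1 in limma), with a 95% interval from 92.4% to 104% of the control signal. With shApela_2 it was -0.03 as well (interval 92.2% to 104%, adjusted p = 0.791), and -0.00 without the third shApela_2 array. Its 3 probe sets, which the annotation ties to overlapping sets of accessions, measured -0.03, -0.03 and -0.09 with shApela_1 and -0.03, -0.05 and -0.07 with shApela_2.

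Hsp90aa1, the stress-inducible cytosolic Hsp90, read 12.77, 12.77 and 12.76 in shLuc, 12.71, 12.74 and 12.76 in shApela_1, and 12.75, 12.74 and 12.72 in shApela_2. Every hairpin array lay below every control array, though by as little as 0.00 (the number 3 arrays of shApela_1 and shLuc). The change was -0.03 with each hairpin (SE 0.03, adjusted p = 1 and 0.77 in limma), and both intervals ran from about 93.0% to 103% of the control. Its 3 probe sets carry the same 7 accessions and differed by -0.03, -0.02 and -0.05 with shApela_1. Where a gene's probe sets share accessions, its signal and that of near-identical copies cannot be told apart.

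Hspa4, an Hsp110 protein that exchanges the nucleotide of Hsp70, measured 11.99, 11.98 and 12.05 in shLuc, 11.92, 11.94 and 12.05 in shApela_1, and 11.98, 11.96 and 12.07 in shApela_2. All 3 groups overlapped, with the number 3 array at the top of each. The changes were -0.04 and -0.00 (SE 0.05, adjusted p = 1 and 0.982 in limma), and the intervals spanned 89.9% to 105% and 92.1% to 108% of the control signal.

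Hsph1, the heat-inducible Hsp110, varied most. It measured 9.92, 10.01 and 10.46 in shLuc, 9.93, 10.04 and 10.46 in shApela_1, and 9.80, 9.90 and 10.28 in shApela_2. In each group the array numbered 3 was far above the others, so the groups overlapped almost wholly. Its change was 0.01 with shApela_1 and -0.14 with shApela_2 (SE 0.19, adjusted p = 1 and 0.804 in limma). The intervals, 75.0% to 136% and 67.5% to 122% of the control signal, were the widest of the 9. Without the third shApela_2 array the change with that hairpin was -0.28 (adjusted p = 0.929), and without the third shLuc array it was 0.03 (adjusted p = 0.961). Arrays of the same number differed much less: shApela_2 lay below shLuc by -0.11, -0.11 and -0.19, and below shApela_1 by -0.13, -0.14 and -0.18, while shApela_1 and shLuc differed by 0.01, 0.04 and -0.01. With the array number as a block, limma's adjusted p of shApela_2 was 0.0759 against shApela_1 and 0.423 against shLuc.

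The J-domain protein Dnajb1, which starts the Hsp70 cycle and is a classical heat shock gene, was at 9.19, 9.22 and 9.29 in shLuc, 9.12, 9.27 and 9.38 in shApela_1, and 9.21, 9.10 and 9.10 in shApela_2. The shApela_1 arrays spread widest and enclosed those of shLuc. Dnajb1 differed by 0.02 with shApela_1 (SE 0.07, adjusted p = 1 in limma) and by -0.10 with shApela_2 (adjusted p = 0.681, interval 83.7% to 104% of the control).

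Chordc1, a partner of Hsp90 with zinc-binding CHORD domains, showed the lowest values with shApela_2. It measured 10.55, 10.55 and 10.71 in shLuc, 10.55, 10.48 and 10.79 in shApela_1, and 10.39, 10.39 and 10.46 in shApela_2. All shApela_2 arrays lay below all other arrays. The difference from shLuc was -0.19 (SE 0.08, adjusted p = 0.68 in limma), 87.6% of the control with an interval from 77.0% to 99.5%. Against shApela_1 it was -0.19 too (adjusted p = 0.368), and shApela_1 differed from shLuc by 0.00 (interval 88.0% to 114%). Without the third shApela_2 array the 2 shApela_2 differences were both -0.22 (adjusted p = 0.929 and 0.397). Neither comparison passed after adjustment over all genes.

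The genes of the mitochondrial chaperonin did not rank the arrays alike. Hspd1, its barrel (Hsp60), measured 12.16, 12.12 and 12.26 in shLuc, 12.16, 12.15 and 12.31 in shApela_1, and 12.06, 12.07 and 12.23 in shApela_2, again with the number 3 array on top of each group. Hspe1, its lid (Hsp10), measured 12.13, 12.05 and 12.09 in shLuc, 12.01, 12.01 and 12.15 in shApela_1, and 12.04, 11.96 and 12.03 in shApela_2. There the number 3 array was the highest in shApela_1 alone. Both genes share the run of heat shock units printed above, and its part in these levels was not tested. With shApela_2 Hspd1 differed from shLuc by -0.06 (interval 86.5% to 107%) and Hspe1 by -0.08 (87.6% to 102%), with adjusted p = 0.765 and 0.68 in limma. With shApela_1 the differences were 0.03 and -0.03 (adjusted p = 1 for both).

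Hspb1, a small heat shock protein that also binds the actin cytoskeleton, was the member with the largest positive difference with shApela_1. Its levels were 12.26, 12.28 and 12.34 in shLuc, 12.43, 12.39 and 12.36 in shApela_1, and 12.34, 12.31 and 12.28 in shApela_2. All shApela_1 arrays lay above all others, and shApela_2 overlapped shLuc. The difference with shApela_1 was 0.10 (SE 0.04, adjusted p = 0.563 in limma), 107% of the control with an interval from 101% to 114%. With shApela_2 it was 0.02 (adjusted p = 0.874), and between the hairpins -0.08 (adjusted p = 0.43). Its other probe set differed by 0.10 and 0.01.

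**Figure D3:**
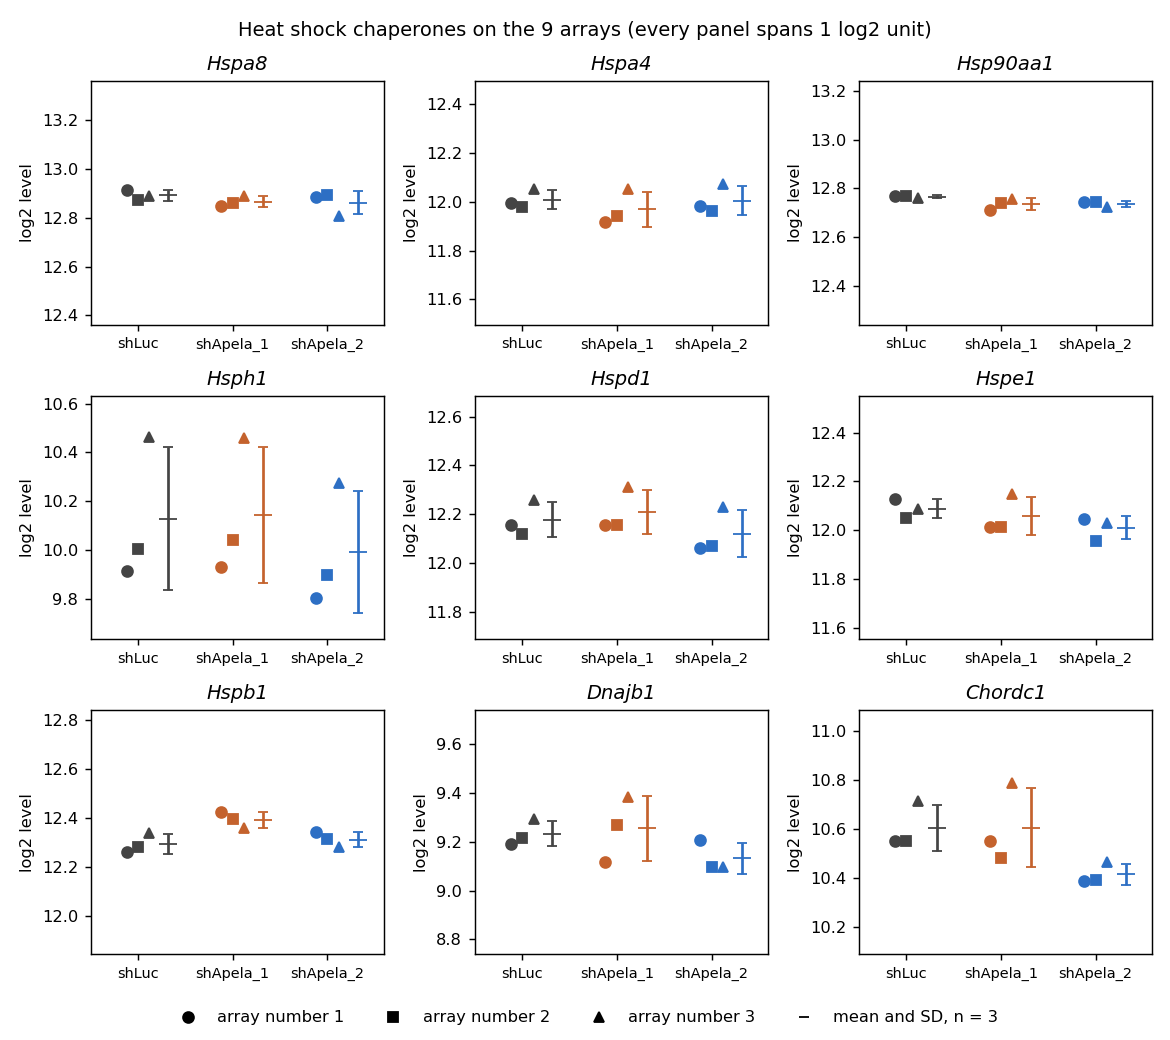
Log2 level of 9 chaperone genes on every array (circle, square and triangle for arrays number 1, 2 and 3) with mean and SD of each group of 3, each panel spanning 1 log2 unit. The triangles of Hsph1 stand at 10.46, 10.46 and 10.28, above the other arrays of their groups, and the shApela_2 arrays of Chordc1 lie below all others.

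For some of the chaperones the groups did not overlap. With shApela_1 1 of the 9 lay wholly above shLuc (Hspb1), beside 8.05% of all genes, and 1 wholly below (Hsp90aa1), beside 5.61%. With shApela_2 3 lay wholly below shLuc (Hsp90aa1, Hspe1 and Chordc1), beside 4.65% of all genes, and 0 wholly above, beside 5.68%. Between the hairpins 2 lay wholly lower with shApela_2 (Hspb1 and Chordc1), beside 10.1%, and 0 wholly higher, beside 7.49%. Set against the array of the same number, shApela_2 was below shLuc in all 3 pairs for 5 of the 9 (Hsp90aa1, Hsph1, Hspd1, Hspe1 and Chordc1), beside 13.6% of all genes. It was below shApela_1 in all 3 for 4 of the 9 (Hsph1, Hspd1, Hspb1 and Chordc1), beside 19.5%. With shApela_1 the count below shLuc was 2 of the 9 (Hspa4 and Hsp90aa1), beside 16.1%. Higher in all 3 pairs were 1 of the 9 with shApela_1 (Hspb1, beside 20.8% of all genes), 0 with shApela_2 (beside 17.0%) and 1 in shApela_2 against shApela_1 (Hspa4, beside 16.2%). The counts of both hairpins rest on the same shLuc arrays.

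For several chaperones the arrays numbered 3 stood apart from the others of their group. Taking the number 3 array minus the mean of the others, Hsph1 was higher by 0.50 in shLuc, 0.47 in shApela_1 and 0.43 in shApela_2, a mean of 1.38-fold. Of all genes, 0.11% (22) were higher by at least the smallest of these values in all 3 groups. Chordc1 was higher by 0.16, 0.27 and 0.08, Hspd1 by 0.12, 0.16 and 0.17, and Hspa4 by 0.07, 0.12 and 0.10. For these 4 of the 9 the number 3 array was the highest of every group, as it was for 13.5% of all genes, and it was the lowest of every group for 0 of the 9, beside 11.1%. The second probe set of Hspd1 showed the same order, with 12.01, 12.10 and 12.07 on the number 3 arrays against 11.76 to 11.91 on the others. Hspa8 (-0.01, 0.04 and -0.08), Hsp90aa1 (-0.01, 0.03 and -0.02) and Hspb1 (0.07, -0.05 and -0.05) had no common sign, and nor did Dnajb1 (0.09, 0.19 and -0.06), while Hspe1 was at 0.00, 0.13 and 0.03. The labels do not say what the numbers stand for, so a culture, a day or an array lot cannot be told apart, and no test was made of this split.

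**Figure D4:**
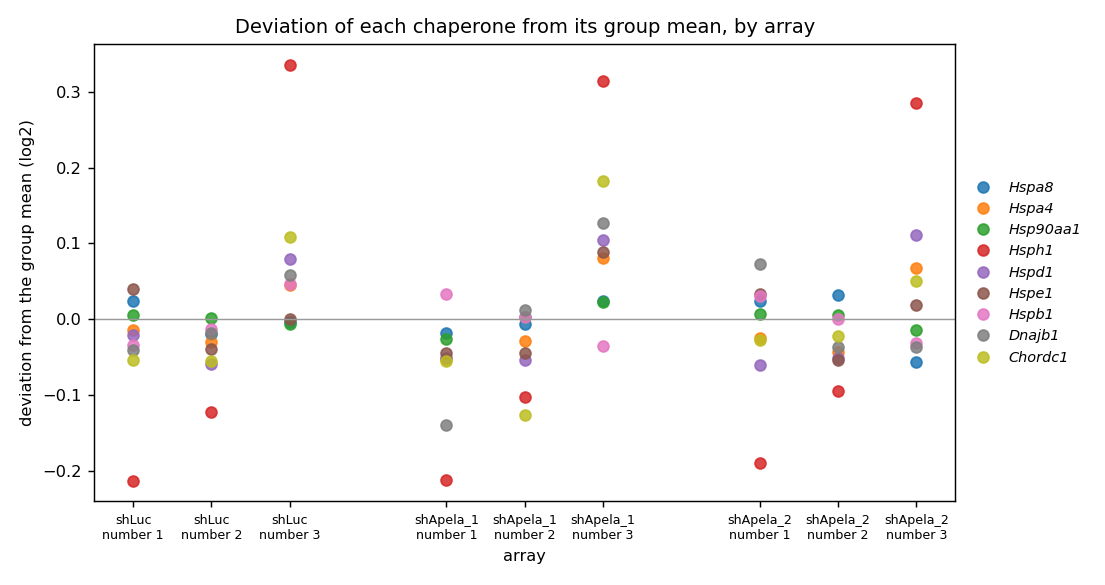
Deviation of each of 9 chaperone genes from its group mean (log2, vertical axis) on the 9 arrays (horizontal axis). Hsph1 stands at 0.34, 0.31 and 0.28 on the number 3 arrays, with Chordc1, Hspd1 and Hspa4 above 0 on the same arrays and Hspa8 and Hsp90aa1 near 0.

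Deviations from the group means show which chaperones varied together over the 9 arrays, as a description in which the 3 arrays of a number weigh heavily. Hspa4 went with Hspd1 (Pearson r 0.98) and Hsph1 (0.93), Hsph1 with Hspd1 (0.95), and Chordc1 with each of the 3 (0.87, 0.87 and 0.87). The mitochondrial partners Hspd1 and Hspe1 correlated at 0.62. Hsp90aa1 went most closely with Dnajb1 (0.78) and Hspa8 (0.72), and Hspb1 was negative or near 0 with all others (-0.42 to 0.05). The next ranking used the mean of the 9 genes' unscaled deviations, in which Hsph1, with the widest spread, weighs most. That mean correlated at 0.92 to 0.95 with Hspa4, Hsph1, Hspd1 and Chordc1, and at 0.71 and 0.68 with Dnajb1 and Hspe1. With Hsp90aa1 it did so at 0.34, with Hspa8 at -0.01 and with Hspb1 at -0.175. Predicted genes, genes with clone names and small RNAs were left out of the ranking. Of the remaining genes outside the group, those whose deviations followed the chaperones' mean most closely were Fmnl2 (r 0.995), a formin of the actin cytoskeleton, and the ciliary gene Invs (0.994). Next came the tRNA methyltransferase Trmt5 (0.993), the olfactory receptor gene Olfr307 (0.992) and the zinc finger gene Zbed3 (0.991). Each of the 5 was higher on the number 3 array of every group. Invs, with a mean level of 6.87 below the table's median, was higher by 0.38, 0.43 and 0.24.

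In the rest of the chaperone network no gene passed in the fit without a block. Across 10 lists of related genes, 143 of 148 genes were measured, and 0 passed the test in any of the 3 comparisons (limma). At an unadjusted p under 0.05 were 12 of the 143 with shApela_1, 5 with shApela_2 and 21 between the hairpins. Of all genes, 7.69%, 5.77% and 12.9% were. The median change of the 143 was 0.00 with shApela_1, -0.01 with shApela_2 and -0.02 between the hairpins. With the array number as a block, 1 of the 143 passed with shApela_1, the J-domain gene Dnajc6, which acts in uncoating clathrin vesicles (0.34, adjusted p = 0.0401, against 0.498 without the block). Between the hairpins 2 passed with the block, Dnajc6 (-0.25, adjusted p = 0.049, against 0.434) and Dnaja2, a J-domain partner of Hsp70 (-0.19, adjusted p = 0.0395, against 0.243). Array weights, which let limma count noisier arrays less, took the number that passed to 2 of the 143 with shApela_1 and 7 between the hairpins. Of all 19938 genes, 688 and 1446 passed with array weights in these comparisons, and 190 and 653 with the block. Hsf1, the master factor of the response, and the inducible Hspa1b had no probe set of their own and are not analysed here. Hsf2, a related factor active in early embryos, measured 10.09 ± 0.09 (SD, n = 3) in shLuc, with differences of -0.02 and -0.09 (adjusted p = 1 and 0.69). Among factors and their regulators the smallest p belonged to Hsf2bp, which binds Hsf2 and acts in meiotic recombination, at -0.23 with shApela_1 and 0.23 between the hairpins (adjusted p = 0.392 and 0.226), and to Hsf4 with shApela_2 (0.07, adjusted p = 0.68).

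In the relays that feed Hsp70, 22 of 43 other J-domain genes lay above shLuc with shApela_1 and 21 with shApela_2. Of all genes, 54.5% and 57.5% did. Their leads by p were Dnajc24 (0.15, adjusted p = 0.332), a J protein of diphthamide synthesis, with shApela_1, Dnajc28 (0.19, adjusted p = 0.68) with shApela_2 and Dnajb14 (-0.22, adjusted p = 0.215), a J protein of the endoplasmic reticulum membrane, between the hairpins. Of 8 other Hsp70 and Hsp110 genes, Hspa13, an Hsp70 relative of the secretory pathway, led every comparison: 0.13 with shApela_1, -0.11 with shApela_2 and -0.24 between the hairpins (adjusted p = 0.761, 0.68 and 0.14). The exchange factors and adaptors of Hsp70 had medians of 0.04 and -0.01 (10 genes), led by Bag3 (0.12, adjusted p = 0.852), Bag1 (-0.13, adjusted p = 0.68) and, between the hairpins, Hspbp1 (-0.16, adjusted p = 0.328).

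On the Hsp90 side, 15 of 17 other cochaperones lay below shLuc with shApela_2 (median -0.02), beside 42.4% of all genes. With shApela_1 6 of 17 did (median 0.01), beside 45.5%. Cdc37, which brings kinases to Hsp90, measured 0.12 with shApela_1 and -0.14 between the hairpins (adjusted p = 0.428 and 0.183), and Rpap3, a scaffold of an Hsp90 cochaperone complex, -0.21 with shApela_2 (adjusted p = 0.68). Of the 14 subunits of the cytosolic chaperonin TRiC and its feeder prefoldin, 10 were lower with each hairpin (medians -0.03 and -0.01). Beside them were 45.5% of all genes with shApela_1 and 42.4% with shApela_2. Pfdn1 was at 0.12 with shApela_1 and -0.12 between the hairpins (adjusted p = 0.564 and 0.299), and Pfdn4 at -0.09 with shApela_2 (adjusted p = 0.68).

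Chaperones of the organelles lay close to shLuc too. The 12 mitochondrial genes had a median of -0.02 with either hairpin, led by the protease genes Yme1l1 (-0.13 with shApela_1, adjusted p = 0.358) and Spg7 (-0.15 with shApela_2 and -0.21 between the hairpins, adjusted p = 0.68 and 0.286). The 16 genes of the endoplasmic reticulum had medians of 0.01 and -0.01, with Xbp1, a transcription factor of the unfolded protein response, at 0.09 and 0.08 (adjusted p = 0.607 and 0.68) and the disulfide isomerase Pdia4 at -0.13 between the hairpins (adjusted p = 0.309). The 9 other genes listed with the small heat shock proteins, Hspb11 by its symbol alone, had medians of 0.01 and 0.06. In front were the alpha-crystallin genes Cryab (0.14 with shApela_1, adjusted p = 1) and Cryaa (0.15 between the hairpins, adjusted p = 0.429). With shApela_2 it was Hspb11 (-0.10, adjusted p = 0.68). Of 9 other stress-inducible genes, the transcription factor genes Atf3 (-0.22 with shApela_1) and Egr1 (0.30 with shApela_2 and 0.27 between the hairpins) led, with adjusted p = 0.79, 0.68 and 0.299.

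**Figure D5:**
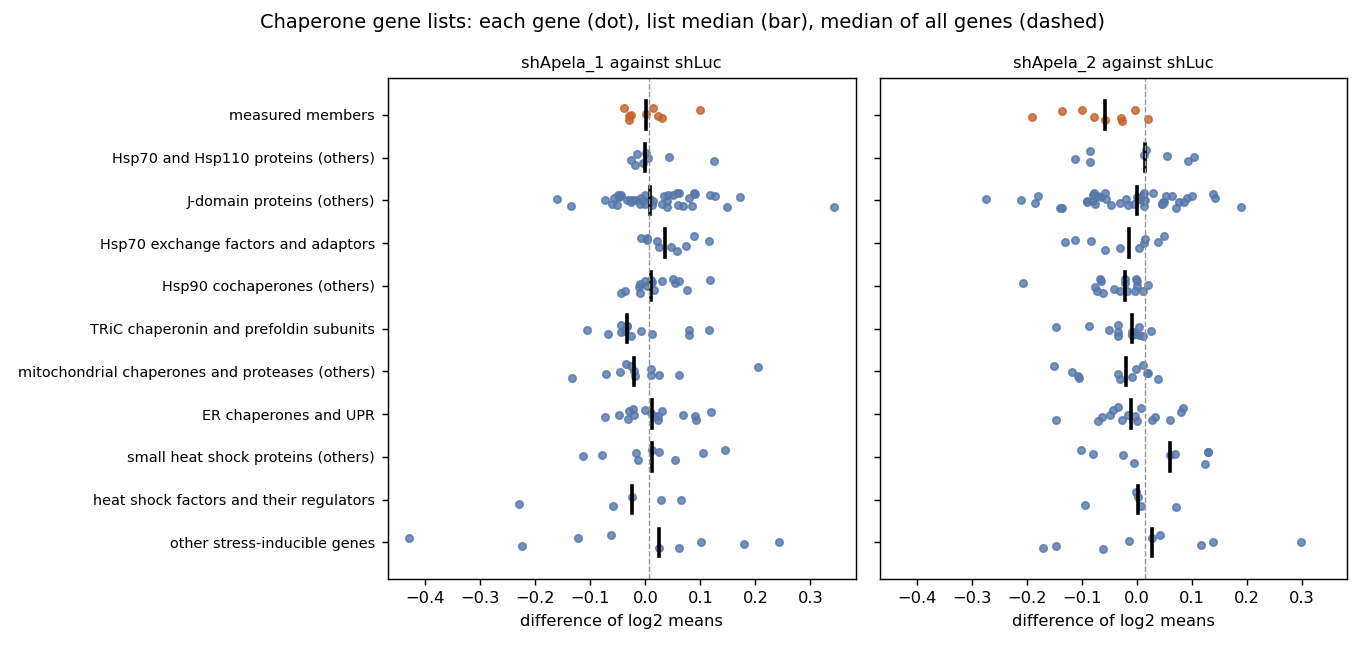
Difference of log2 means from shLuc for the 9 chaperones (orange) and the genes of 10 related lists (blue dots), with list medians (black bars) and the median of all genes (dashed line), for shApela_1 (left) and shApela_2 (right). List medians lie between -0.03 and 0.04 on the left and between -0.02 and 0.06 on the right, apart from the 9 chaperones at -0.06.

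The order of the arrays by number differed between these lists. The number 3 array was the highest of every group for 9 of 14 TRiC and prefoldin genes and 6 of 17 Hsp90 cochaperones, beside 13.5% of all genes, but for 0 of 16 genes of the endoplasmic reticulum, where it was the lowest of every group for 5 (11.1% of all genes). Among the other stress-inducible genes it was the lowest of every group for 5 of 9. The following were chosen after their values were seen. Ahsa1, which speeds the ATP cycle of Hsp90, was higher on the number 3 arrays by 0.21, 0.20 and 0.16, and the heme oxygenase Hmox1 by 0.42, 0.50 and 0.40. The immediate early gene Fos was lower there by -1.22, -0.89 and -1.19, with levels of 7.76, 7.55 and 7.61 against 8.44 to 9.22 on the other 6 arrays. Hspa1a, the strictly inducible Hsp70, lay at 7.39 to 7.56 on all 9 arrays, near the table's median, and showed no common sign (-0.13, -0.07 and 0.02).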

How the data were processed

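The deposited values are log2 signals, 1 for each probe set on each array. The authors made them with RMA (background correction, quantile normalization and summary of probes) in Partek 6.6, per the submitters' processing notes. Base 2 was inferred from the span of the values. No scanner background was used here, so precision is limited by how many arrays there are.

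Of 28853 probe sets, 21775 had 1 gene symbol in GEO's platform annotation, 1578 several and 5500 none. Each of 19938 genes was represented by its brightest single-symbol probe set. One limma 3.58.1 fit in R 4.3.3 held all 9 arrays (lmFit, then eBayes, two-sided, 6 residual and 2.72 prior degrees of freedom), without a filter on dim genes. All 9 measured chaperones lay above the table's median. P-values were adjusted over all genes by the Benjamini-Hochberg method. The fit was also run on simulated data with independent noise for each gene and array. Those data held no effect of the array number and no outlying array, so they cannot show how the fit handles either.

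The chaperones, gene lists, tests and alternatives were chosen with earlier results of these data known. Named by rule are all measured chaperones, Hsf2, Apela and the gene of each list with the smallest p in each comparison. The rule also names the 5 genes most like the chaperones' mean deviation. Predicted genes, genes with clone names and small RNAs were left out when these 5 were picked. Lin28a, Krt8, Krt18, Dab2, Dnajc6, Dnaja2, Ahsa1, Hmox1, Fos and Hspa1a are named outside this rule, after their values were seen.

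Deviations of same-numbered arrays from their group means correlated at 0.40 to 0.68 between shLuc and shApela_1. Between shApela_1 and shApela_2 they did so at 0.18 to 0.21, and between shLuc and shApela_2 at -0.01, 0.67 and 0.47. The labels state no pairing, so the main fit treated the arrays as unpaired. Fits with the array number as a block are given as alternatives.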

Additional observations from a re-analysis of the deposited data

How the results depend on the processing

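None of the 9 chaperones passed in any of 3 comparisons under any of the alternatives run. Of 486 chaperone values under 18 alternatives, 454 kept their sign and 32 changed it, all of them uncalled. The smallest adjusted p (limma) was 0.0593, for Hspb1 with shApela_1 under array weights (change 0.12). The 3 arrays per group limit precision, and no scanner background was at hand to judge dim probes.

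The counts of all genes that passed moved more, and the cause was not tested. With shApela_1 the 67 became 37 with an intensity trend and robust prior, 121 after a second quantile normalization, 42 with centred medians, 688 with array weights, 44 with only the compared arrays, 249 on numbers 1 and 2 alone, 7 at a threshold of 0.01 and 134 at 0.1. With shApela_2 the 3 became 7 after a second quantile normalization and 23 with array weights. Between the hairpins the 189 became 1446 with array weights, 28 with only the compared arrays, 434 on numbers 1 and 2, 27 at 0.01 and 374 at 0.1. Leaving out each array in turn gave 3 (without the second shApela_1 array) to 146 (without the third shApela_2 array) with shApela_1, 2 to 6 with shApela_2, and 19 (without the first shApela_1 array) to 222 between the hairpins.

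With the replicate number as a block, 190, 8 and 653 genes passed. Among the chaperones its smallest adjusted p were 0.0759 (Hsph1) and 0.0973 (Chordc1), both between the hairpins, and it changed no chaperone's call. Among the 143 genes of related lists it called 1 with shApela_1 and 2 between the hairpins, where none had passed. Array weights called 2 with shApela_1, Dnajc6 (adjusted p = 0.0219) and Dnajc24 (0.0388), and 7 between the hairpins, which include Hsf2bp (0.019), Dnaja2 (0.0194), Cdc37 (0.0299), Egr1 (0.0381) and Hspbp1 (0.0481). Arrays 1 and 2 alone called Dnajc6 in both comparisons (0.0243 and 0.0418). At the 0.05 threshold no other alternative called any of the 143. Lin28a passed between the hairpins in the main fit, but not with only the compared arrays nor without 7 of the 9 arrays, each left out in turn.

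Signs turned, with the cause not tested, for these small differences. Under array weights the values with shApela_1 were -0.0069 for Hsph1, -0.0006 for Dnajb1 and -0.041 for Chordc1, and between the hairpins 0.031 for Hspa8 and 0.0071 for Hsf2. On numbers 1 and 2 alone they were -0.012 for Dnajb1 and -0.036 for Chordc1 with shApela_1, and 0.037 for Hspa8 and 0.006 for Hsf2 between the hairpins. A second quantile normalization gave -0.0054 for Chordc1 with shApela_1, 0.0051 for Hsp90aa1 with shApela_2 and 0.0004 for Hspa8 between the hairpins. Centred medians gave -0.0041 for Chordc1 with shApela_1, -0.0082 for Hspb1 with shApela_2, and -0.021 for Hsp90aa1 and -0.0028 for Apela between the hairpins. Averaging all probe sets gave 0.0009 for Hspa8 between the hairpins.

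Leaving out each array in turn, the values with shApela_1 ran from -0.14 to 0.18 for Hsph1, -0.022 to 0.070 for Hspd1, -0.041 to 0.093 for Dnajb1, -0.091 to 0.064 for Chordc1 and -0.075 to 0.004 for Hsf2. With shApela_2 they ran from -0.038 to 0.019 for Hspa4 and -0.28 to 0.031 for Hsph1. Between the hairpins they ran from -0.019 to 0.024 for Hspa8, -0.011 to 0.013 for Hsp90aa1, -0.29 to 0.0058 for Hsph1, -0.019 to 0.099 for Apela and -0.12 to 0.0079 for Hsf2. The chaperones' median between the hairpins ran from -0.0811 to -0.0043, the latter without the third shApela_1 array.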
